A study of Homo sapiens with 6 samples.

Results

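The nuclear-encoded genes of the mitochondrial respiratory chain were followed in Hep-3B cells after knockdown of NXN. Members were taken by symbol: protein-coding genes whose names begin with NDUFA, NDUFB, NDUFC, NDUFS or NDUFV for complex I, SDHA to SDHD for complex II, UQCR or CYC1 for complex III, COX4I, COX5, COX6, COX7 or COX8 for complex IV, and ATP5 for complex V. This gave 98 of the 23406 features in the tables, with 48 genes for complex I, 4 for complex II, 9 for complex III, 17 for complex IV and 20 for complex V. Of these, 86 encode subunits, 8 are NDUFAF assembly factors that the letters NDUFA take in, 2 are read-through genes (NDUFC2-KCTD14 and ATP5MF-PTCD1) and 2 encode regulators, the ATP synthase inhibitor ATP5IF1 and the supercomplex factor COX7A2L. UQCRHL and the subunits encoded by mitochondrial DNA were not analysed here.

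The respiratory chain sits in the inner mitochondrial membrane. Complexes I and II pass electrons from NADH and succinate to ubiquinone, complex III passes them to cytochrome c, complex IV hands them to oxygen, and complex V, the ATP synthase, uses the resulting proton gradient to make ATP. Most subunits are made from nuclear genes and imported, and hepatocytes are rich in mitochondria.

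Hep-3B is a human hepatocellular carcinoma cell line, labelled here as epithelial cells. The control cells (genotype WT) received the shControl plasmid and the other cells (genotype NXN knockdown) an shRNA against NXN, which encodes the thioredoxin-family oxidoreductase nucleoredoxin. Both constructs were delivered by lentivirus, with puromycin selection in both arms, and which NXN hairpin was sequenced was not stated. Total RNA was taken on days 7, 9 and 11, giving 3 libraries a group and 1 library a group and day.

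The estimated counts summed to between 15349382 and 16332589 per library. NXN stood at 181, 138 and 143 CPM (counts scaled by TMM to a common library size) in the shControl libraries of days 7, 9 and 11 and at 42.7, 47.5 and 39.5 CPM in the shNXN libraries, a log2 fold change of -1.83 (SE 0.16, adjusted p = 0.0378 by edgeR's quasi-likelihood test, p-values adjusted by Benjamini-Hochberg over all features). That call was lost when the shControl library of day 7 or 11 or the shNXN library of day 7 or 9 was left out (adjusted p 0.0633 to 0.225 in edgeR). All 9 hepatocyte markers were above 1 FPKM in every library, with 0 called (1 with day as a block, HNF4A, higher), and their summed FPKM ran from 7067 to 15720 in shControl and from 3209 to 8130 in shNXN. ALB weighed most in that sum, at 6447, 12145 and 4409 FPKM in shControl and 1084, 489 and 4735 FPKM in shNXN. The log2 fold changes of ALB, AFP, APOB, FGB and TTR were -1.69, -1.07, -0.94, -0.50 and -0.12. That of APOA1 was 0.09, and SERPINA1, HNF4A and AHSG each had 0.44. Of 7 fibroblast markers 2 were above 1 FPKM in every library, as were 2 of 6 blood and immune markers, while PTPRC, CD3E and HBB were at or near 0. Nothing in the sources said that the libraries came from separate cultures, so p-values measure only the spread between these samples. In such bulk samples, fewer cells of a kind and less RNA per cell cannot be told apart. Fold changes rose with transcript GC content across the whole table (Spearman's rho 0.79 over the tested features with a GC value, a description across genes that share the same libraries), and this measure is given again beside the members below.

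The promoters of respiratory genes are known for sites of the factors NRF1, the ETS factor GABP, YY1 and SP1. RefSeq windows (GRCh38.p14, 250 bases before to 50 after the annotated start of each gene) were found at or near the gene for 79 of the 98 members. The median GC content of these windows by complex ran from 57.7% (complex IV) to 67.0% (complex II). They are set below beside all RefSeq windows, which were not matched to them in GC content or expression. On either strand, the NRF1 letters GCGCNTGCG stood in 24 members' windows (30.4%, against 8.1% of all 27305 windows), the ETS letters CCGGAAG in 21 (26.6% against 10.7%), the YY1 letters AAGATGG in 16 (20.3% against 6.1%) and the SP1 letters GGGCGG in 45 (57.0% against 44.6%). The NRF1 letters are nearly their own reverse complement, so matches on both strands can overlap. In most of the 16 windows with YY1 letters, the first match lay 8 to 38 bases past the annotated start, in transcribed sequence. The last 120 bases before the start are printed for NDUFV1, NDUFA2, COX4I1 and ATP5MC1, which stood higher in shNXN, and for COX7A2, COX7B, ATP5MJ and ATP5F1C, which stood lower on days 7 and 9, with matches to the 4 motifs in capitals. The start that RefSeq lists need not be the one used in Hep-3B.
NDUFV1, chr11:67606816-67606935, plus strand: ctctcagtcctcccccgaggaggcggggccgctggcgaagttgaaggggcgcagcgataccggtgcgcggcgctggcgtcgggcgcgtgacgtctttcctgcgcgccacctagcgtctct
NDUFA2, chr5:140647631-140647750, minus strand: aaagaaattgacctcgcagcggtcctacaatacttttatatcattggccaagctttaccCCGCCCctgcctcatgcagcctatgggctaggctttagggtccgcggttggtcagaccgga
COX4I1, chr16:85799575-85799694, plus strand: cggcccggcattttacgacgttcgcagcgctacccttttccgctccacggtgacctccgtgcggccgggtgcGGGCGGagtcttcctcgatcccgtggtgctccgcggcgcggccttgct
ATP5MC1, chr17:48892667-48892786, plus strand: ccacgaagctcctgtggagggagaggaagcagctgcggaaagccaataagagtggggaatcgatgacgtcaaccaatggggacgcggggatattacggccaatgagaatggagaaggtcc
COX7A2, chr6:75250299-75250418, minus strand: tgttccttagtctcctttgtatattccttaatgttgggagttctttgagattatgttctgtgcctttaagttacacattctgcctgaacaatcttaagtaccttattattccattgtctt
COX7B, chrX:77899348-77899467, plus strand: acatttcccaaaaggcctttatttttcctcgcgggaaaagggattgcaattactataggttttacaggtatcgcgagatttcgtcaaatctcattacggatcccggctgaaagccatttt
ATP5MJ, chr14:103921530-103921649, minus strand: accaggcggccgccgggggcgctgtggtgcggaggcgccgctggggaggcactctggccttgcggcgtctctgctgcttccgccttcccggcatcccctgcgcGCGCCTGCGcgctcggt
ATP5F1C, chr10:7788057-7788176, plus strand: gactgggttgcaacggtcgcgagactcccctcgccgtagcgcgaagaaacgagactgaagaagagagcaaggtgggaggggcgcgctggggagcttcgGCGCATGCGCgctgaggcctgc
NDUFA2 and COX4I1 each hold 1 SP1 match in this stretch, ATP5MJ holds 1 NRF1 match, and ATP5F1C holds NRF1 matches on both strands that overlap. NDUFV1 and ATP5MC1, among the genes that stood higher, and COX7A2 and COX7B, among those that stood lower, hold none of these letters here. The GC content of the stretches was 34.2% for COX7A2 and 41.7% for COX7B, and ran from 53.3% for NDUFA2 to 77.5% for ATP5MJ in the other 6. Tested members with an NRF1 match had a median log2 fold change of 0.184 and those without one of 0.169. The same medians with and without a match were 0.185 and 0.141 for ETS, 0.134 and 0.257 for SP1, and 0.037 (16 members) and 0.291 (59 members) for YY1. By day, the members with a YY1 match had medians of 0.005, -0.108 and 0.225 on days 7, 9 and 11, against 0.180, 0.275 and 0.276 for those without.

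As a class the chain was strongly expressed. The tested members had a median of 122 FPKM (fragments per unit of transcript length and of depth, which allows levels of different genes to be set side by side) against 13.5 for all tested features. The medians by complex were 76.2 FPKM for complex I, 80.3 for complex II, 133 for complex III, 297 for complex IV and 191 for complex V. The highest level in complex I was that of NDUFA11, an accessory subunit. It stood at 557 FPKM ± 87.4 in shControl and 784 ± 127 in shNXN (SD, n = 3 libraries, each of another day). SDHA, the flavoprotein that oxidises succinate, led complex II (104 ± 2.21 and 139 ± 18.4 FPKM), and the hinge protein UQCRH led complex III (313 ± 29.6 and 418 ± 80.5 FPKM). COX6A1 led complex IV (597 ± 25.5 and 809 ± 185 FPKM) and ATP5MF complex V (586 ± 20.3 and 799.9 ± 146 FPKM). COX6A1, ATP5MF and NDUFA11 lie within each other's spread. The FPKM of very short or oddly annotated genes rests on the length used: the deposited counts and FPKM imply a length of 86.5 bases for ATP5MF but 3328 for ATP5F1E, the epsilon subunit, which stood between 75.9 and 126 CPM but averaged 31.9 FPKM.

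**Figure D1:**
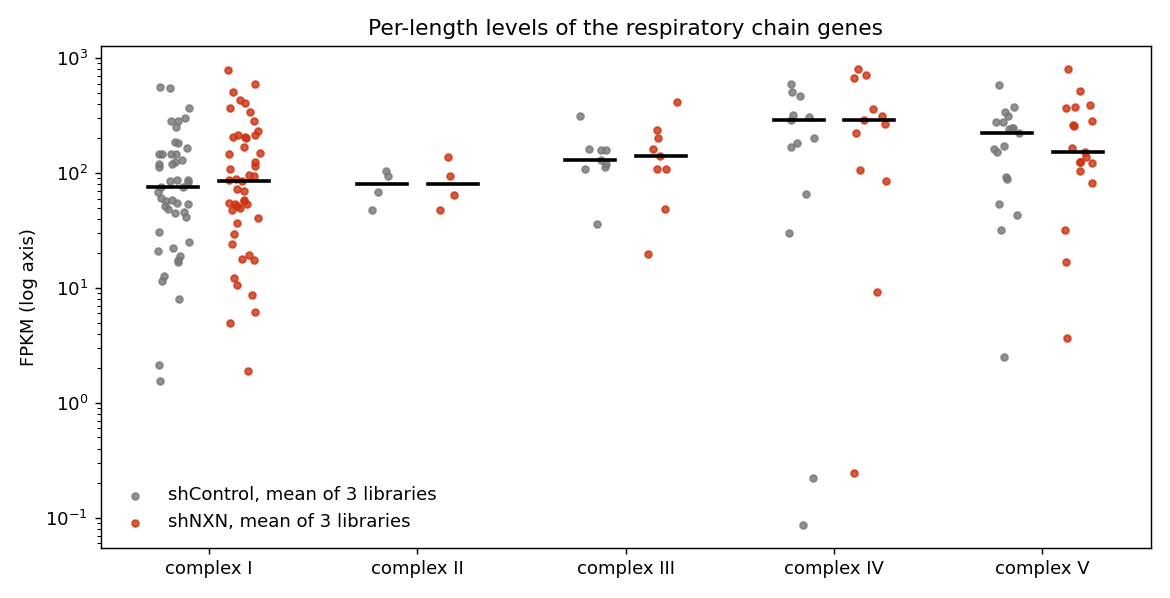
Mean FPKM of each member over the 3 shControl (grey) and 3 shNXN (red) libraries, on a log axis, by complex, with black bars at the medians of the tested members and means of 0 not drawn. Complex IV sits highest, and its 2 points below 1 FPKM in shControl are COX6B2 and COX7A1.

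Several tissue-restricted paralogs were at or near 0 beside an expressed copy. COX4I1, which encodes the ubiquitous form of subunit 4, was at 503 ± 6.57 FPKM in shControl, whereas COX4I2, the form known from lung, had 0 counts in every library. COX6A1 had 597 FPKM and its muscle form COX6A2 had 0 counts. COX6B1 was at 287 ± 29.1 FPKM, and COX6B2, known from testis, averaged 0.233 FPKM over the 6 libraries. COX7A2 was at 169.8 ± 13.8 FPKM, the muscle form COX7A1 had counts in a single library and averaged 0.0433 FPKM, and COX7A2L was at 65.2 ± 7.25 FPKM. COX7B2, COX8C and ATP5MGL also had 0 counts in all libraries. The 3 genes for the identical ATP synthase c subunit ranked ATP5MC3 (316 ± 58.6 FPKM), ATP5MC2 (277 ± 59.2) and ATP5MC1 (54.1 ± 8.76) in shControl, where the first and second lay within their spread. NDUFA4, placed under complex I by its symbol although the protein is now known as a complex IV subunit, was at 121 ± 16.8 FPKM. Its hypoxia-induced relative NDUFA4L2 was at 1.92, 1.16 and 1.60 FPKM in shControl and at 9.53, 1.88 and 3.32 FPKM in shNXN, where day 7 alone was far above the rest.

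A total of 91 members passed the filter on low counts and were tested: 48 of complex I, 4 of complex II, 9 of complex III, 11 of complex IV and 19 of complex V. With the days pooled, 0 of the 91 were called at an adjusted p under 0.05 by edgeR's quasi-likelihood test (smallest adjusted p = 0.0646), where 3.39% of all 14071 tested features were called (0.185% higher and 3.21% lower). At an unadjusted p under 0.05, 17 members passed, 14 higher and 3 lower in shNXN, which is 18.7% against 32.9% of all features. DESeq2 called 5 members (5.49%, against 23.5% of all features), namely NDUFV1, CYC1 and ATP5MC1 as higher (3.30% against 6.74%) and UQCRB and COX7A2 as lower (2.20% against 16.8%). With day as a block, edgeR called 13 members, 14.3% against 23.3% of all features. Of these, 12 were higher (13.2% against 6.28%) and 1 was lower (1.10% against 17.0%). The 12 were NDUFA2, NDUFB8, NDUFB9, NDUFB10, NDUFB11, NDUFS6, NDUFV1, CYC1, UQCRC1, COX4I1, COX5B and ATP5MC1, and the lower gene was COX7A2. So fewer members than features at large passed in each of these tests, and those that passed with the block were mostly higher. The CPM of the 2 groups did not overlap in 16 members as higher and in 4 as lower (17.6% and 4.40%, against 19.0% and 21.5% of all features, or 40.6% in all).

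The median log2 fold change over the 91 members was 0.14, beside 0.03 over all tested features. By complex it was 0.18 for complex I, -0.01 for complex II, 0.29 for complex III, 0.26 for complex IV and -0.00 for complex V. On the deposited FPKM scale, log2(FPKM + 1), the median of all features itself moved to 0.13, and that of the members to 0.25.

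In complex I the gene with the smallest p was NDUFV1 (ENSG00000167792, chr11:67605653-67612554 in GRCh38), which encodes the NADH-binding core subunit. NDUFV1 stood at 151, 151 and 136 CPM in shControl on days 7, 9 and 11 and at 217, 233 and 172 CPM in shNXN. Every shNXN library was above every shControl library. The log2 fold change was 0.50 (SE 0.15, edgeR adjusted p = 0.0825), and with day as a block it was 0.49 (SE 0.11, adjusted p = 0.0345), so that it passed with the block and not without it. NDUFA2, an accessory subunit with a thioredoxin-like fold, stood at 34.9, 35.1 and 24.7 CPM in shControl and 49.2, 59.0 and 35.6 CPM in shNXN, with adjusted p = 0.138 in edgeR and 0.0353 with the block. The groups barely separated there, since the day 11 shNXN library was close to the upper shControl libraries. NDUFS6, which encodes the zinc-binding subunit, stood at 80.2, 67.4 and 57.0 CPM in shControl and 99.98, 111 and 79.2 CPM in shNXN, and its groups overlapped. NDUFB9 stood at 156, 179.7 and 151 CPM in shControl against 204, 247 and 191 CPM in shNXN, without overlap. NDUFB4 stood at 90.0, 57.3 and 75.9 CPM against 112, 121 and 91.8 CPM, also without overlap, and was not called with the block (edgeR adjusted p = 0.0823).

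The NDUFB subunits, which belong to the membrane arm of complex I, had a median log2 fold change of 0.40 over 11 genes, with 4 called with the block, all higher (36.4%, against 6.28% of all features called higher and 23.3% called in all). The 7 core subunits had a median of 0.21 with 1 called (NDUFV1, 14.3%), the 21 other accessory subunits 0.14 with 2 called (NDUFA2 and NDUFS6, 9.52%), and the 8 NDUFAF assembly factors -0.10 with 0 called. With the GC correction these medians became 0.64, 0.00, 0.13 and 0.32, so that the assembly factors changed direction. Within the core, NDUFS1, the large iron-sulfur subunit, ran against NDUFV1: it stood at 209, 289 and 226 CPM in shControl and at 133, 118 and 228 CPM in shNXN. Its shNXN values were low on days 7 and 9 and level with shControl on day 11. NDUFS1 was chosen after its values were seen. NDUFA11, the most abundant member of the complex, stood at 217, 213 and 142 CPM in shControl and 252, 264 and 202 CPM in shNXN, with overlapping groups (log2 fold change 0.33, SE 0.20, edgeR adjusted p = 0.277). NDUFA4 stood at 229, 255 and 185 CPM against 178, 193 and 215 CPM, lower on days 7 and 9 and higher on day 11. NDUFA4L2 had a log2 fold change of 1.57 (SE 0.59, edgeR adjusted p = 0.124) at a level of 1.05 to 7.73 CPM, and 0.74 (SE 0.46) without the shNXN library of day 7.

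Complex II is the smallest and holds no mitochondrially encoded subunit. SDHA (ENSG00000073578, chr5:218241-256700) stood at 209.9, 219.8 and 201 CPM in shControl and at 257, 309 and 252 CPM in shNXN, so that the groups did not overlap. Its log2 fold change was 0.38 (SE 0.13, edgeR adjusted p = 0.108), and with the block it missed the threshold too (adjusted p = 0.0507). SDHB, the iron-sulfur subunit, stood at 47.4, 61.0 and 48.3 CPM against 48.7, 60.4 and 56.1 CPM. The membrane anchors were mixed: SDHC stood at 85.6, 92.4 and 82.5 CPM in shControl and 77.8, 65.6 and 101 CPM in shNXN, and SDHD at 57.0, 39.6 and 59.9 CPM and 48.0, 45.2 and 42.9 CPM. Their fold changes of -0.09 (SE 0.18) and -0.20 (SE 0.19) were within the spread between libraries.

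Complex III held both directions at once. CYC1, which encodes cytochrome c1, stood at 169.9, 171 and 135 CPM in shControl and at 216, 259.6 and 220.2 CPM in shNXN, with no overlap. The log2 fold change was 0.55 (SE 0.15, edgeR adjusted p = 0.0735), and 0.55 with the block (SE 0.11, adjusted p = 0.0314). UQCRC1, a core protein of the matrix side (chr3:48599002-48610976), stood at 114, 129 and 115 CPM in shControl and 157, 193 and 138 CPM in shNXN, with no overlap and adjusted p = 0.112 in edgeR, or 0.0474 with the block. UQCRB, which encodes a ubiquinone-binding subunit, stood at 86.3, 113 and 75.1 CPM in shControl and at 8.70, 7.97 and 56.7 CPM in shNXN. The shNXN libraries were below every shControl library, by a large margin on days 7 and 9 and a small one on day 11. The pooled log2 fold change was -1.90 with an SE of 0.75 (edgeR adjusted p = 0.133, or 0.0608 with the block). Without the day 11 libraries it was -3.57 (SE 0.20, adjusted p = 0.000294). The difference on day 11 minus that on days 7 and 9 was 3.17 on the log2 scale (SE 0.32, edgeR adjusted p = 0.0467), in a fit that takes days 7 and 9 as replicates and assumes that the lone day 11 libraries vary like them. UQCRB was the single member among the 91 that passed this test, which called 0.0355% of all features, and it was not called with a GC correction, with library size as the only scaling or with no filter. UQCRC2, the partner of UQCRC1, stood at 196, 306 and 173 CPM in shControl and 134, 143 and 184 CPM in shNXN, and was chosen after its values were seen. The groups of UQCRC2 overlapped through day 11.

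In complex IV, COX4I1 (chr16:85798633-85807044) stood at 234, 242 and 214 CPM in shControl and 309, 345 and 257 CPM in shNXN. The groups did not overlap, and the log2 fold change was 0.40 (SE 0.15, edgeR adjusted p = 0.117, or 0.0480 with the block). COX5B stood at 89.8, 95.7 and 61.4 CPM against 120, 126 and 88.6 CPM, with overlapping groups and adjusted p = 0.0377 in edgeR with the block. COX7A2L stood at 56.5, 50.9 and 60.7 CPM against 70.7, 73.8 and 69.4 CPM, without overlap, and its adjusted p with the block was 0.0874 in edgeR. COX7A2 (ENSG00000112695, chr6:75237675-75250323), the liver form of subunit 7A, ran the other way: it stood at 68.8, 78.6 and 59.4 CPM in shControl and at 35.1, 35.2 and 49.0 CPM in shNXN. No shNXN library reached the lowest shControl library. Its log2 fold change was -0.79 (SE 0.20, edgeR adjusted p = 0.0646, or 0.0454 with the block). COX7B (chrX:77899438-77907373), chosen after its values were seen, stood at 54.1, 104 and 37.8 CPM in shControl and at 7.06, 2.45 and 44.1 CPM in shNXN. It was many times lower on days 7 and 9 and slightly higher on day 11, and its day 11 departure of 4.28 (SE 0.81) missed the threshold (edgeR adjusted p = 0.105).

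In complex V the c-ring gene ATP5MC1 (ENSG00000159199, chr17:48892765-48895871) stood at 19.1, 19.0 and 12.5 CPM in shControl and at 30.5, 33.3 and 22.2 CPM in shNXN. All shNXN libraries were above all shControl libraries, with a log2 fold change of 0.77 (SE 0.25, edgeR adjusted p = 0.0962), and the same 0.77 with the block (SE 0.14, adjusted p = 0.0255). The other c-ring genes did not pass: ATP5MC2 stood at 124, 137 and 78.5 CPM against 154, 163 and 112 CPM, and ATP5MC3 at 217, 258 and 201 CPM against 186, 204 and 210.2 CPM. The 3 genes encode the same mature protein, and ATP5MC1 has the lowest level of them. ATP5F1C (chr10:7788129-7807815), the gamma subunit that turns inside the catalytic head, stood at 149, 196 and 113 CPM in shControl and at 79.3, 76.9 and 129.9 CPM in shNXN. The head genes ATP5F1A and ATP5F1B, for the alpha and beta subunits, had log2 fold changes of -0.14 (SE 0.19) and 0.07 (SE 0.16). The read-through gene ATP5MF-PTCD1, whose reads cannot be fully told apart from those of ATP5MF and PTCD1, stood at 4.52, 6.46 and 5.34 CPM against 6.82, 8.58 and 8.96 CPM, without overlap.

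The peripheral stalk, which holds the catalytic head still, had a median log2 fold change of -0.36 over 4 genes, which was 0.02 with the GC correction and 0.05 with the block added to it. ATP5PB stood at 139.6, 162 and 137 CPM in shControl and at 97.3, 91.6 and 142 CPM in shNXN. ATP5PF stood at 64.7, 67.4 and 50.2 CPM against 42.8, 42.5 and 61.0 CPM, and ATP5PO at 96.8, 151 and 79.6 CPM against 68.1, 75.6 and 92.3 CPM. In all 3 genes the shNXN libraries of days 7 and 9 were low and that of day 11 was within the shControl range, whereas ATP5PD, the remaining stalk gene, stood at 77.9, 87.3 and 65.3 CPM against 80.6, 87.9 and 82.4 CPM. The small membrane subunits that help dimers of the synthase to form included the lowest differences. ATP5MJ (chr14:103912288-103928269) stood at 18.2, 19.9 and 13.4 CPM in shControl and 4.02, 1.72 and 15.1 CPM in shNXN, and ATP5MK (chr10:103389041-103396492) at 34.6, 20.8 and 30.6 CPM and 11.0, 9.25 and 27.5 CPM. Day 11 again overlapped with shControl in both. The stalk genes, ATP5MJ and ATP5MK were chosen after their values were seen.

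**Figure D2:**
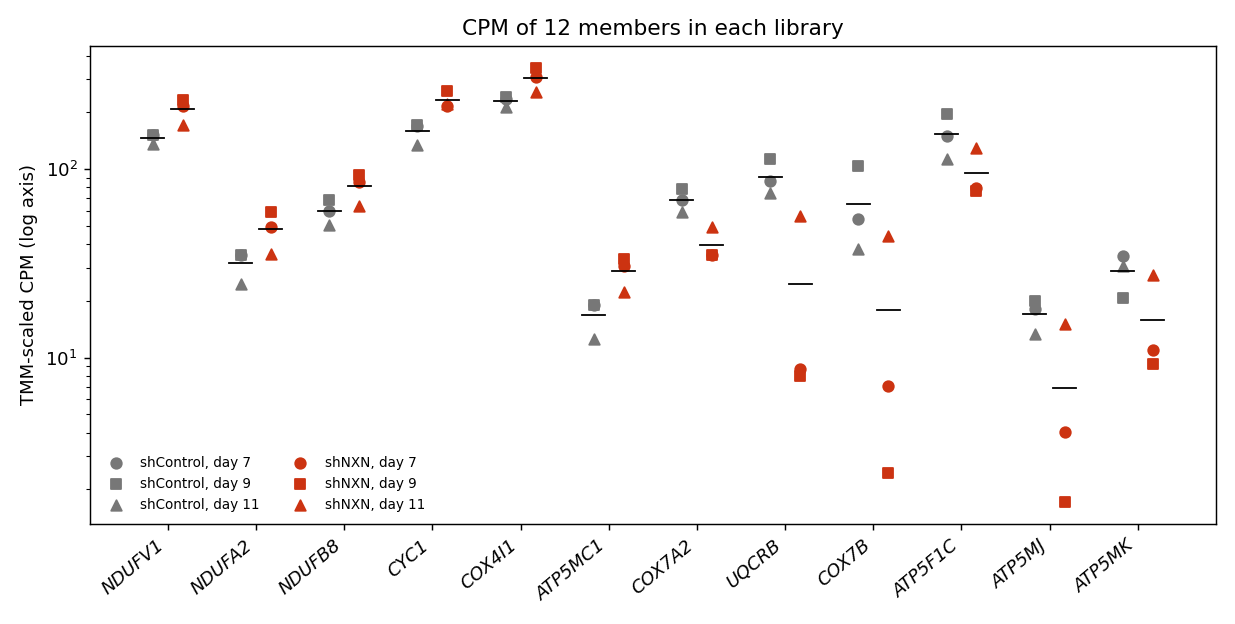
TMM-scaled CPM on a log axis for 12 members in the 3 shControl (grey) and 3 shNXN (red) libraries, with circles for day 7, squares for day 9, triangles for day 11 and bars at the group means. From NDUFV1 to ATP5MC1 the red points sit modestly above the grey ones, and from UQCRB to ATP5MK the red circles and squares fall well below while the red triangles lie near the grey points.

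The median day differences of the complexes ran differently over the days, which was not tested. Taking log2 CPM of the shNXN library minus that of the shControl library of the same day, the median of complex III was 0.31, 0.30 and 0.27 on days 7, 9 and 11, and that of complex IV was 0.26, 0.24 and 0.24. Complex I went from 0.15 on day 7 to 0.28 on day 9 and 0.26 on day 11. Complex II had medians of -0.05, 0.09 and 0.25, and complex V of 0.04, -0.19 and 0.28. Each day had 1 library a group, so these medians have no replicate check. Single genes moved under the flat medians: the lowest difference was -3.24, -3.74 and -0.40 in complex III in the same day order. In complex IV it was -2.85, -5.15 and -0.27. All tested features had medians of 0.00, -0.00 and 0.06.

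On day 11 the members leaned most to one side: 79 of 91 were above 0 (86.8%, against 54.6% of all features), where days 7 and 9 had 51 and 53 (56.0% and 58.2%, against 50% and 49.7%). The tested members' median FPKM was 120, 132 and 103 in shControl on days 7, 9 and 11, and 106, 120 and 125 in shNXN. The day 11 shControl library thus had the lowest median of all, and its part in the day 11 lean was not tested. In complex V, 18 of 19 members were above 0 on day 11 and 8 of 19 on day 9. Members with a day difference below -1 numbered 7 on day 7 (7.69%, against 16.2% of all features), 9 on day 9 (9.89% against 19.0%) and 2 on day 11 (2.20% against 7.75%). Those of day 7 were NDUFA12, NDUFAF4, NDUFV2, UQCRB, COX7B, ATP5MJ and ATP5MK, and those of day 9 were NDUFA12, NDUFS1, UQCRB, UQCRC2, COX7A2, COX7B, ATP5F1C, ATP5MJ and ATP5MK. On day 11 they were NDUFA5 and NDUFAF4. In 44 members the difference was above 0 on all days and in 8 below 0 (48.4% and 8.79%, against 35.8% and 32.6% of all features).

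**Figure D3:**
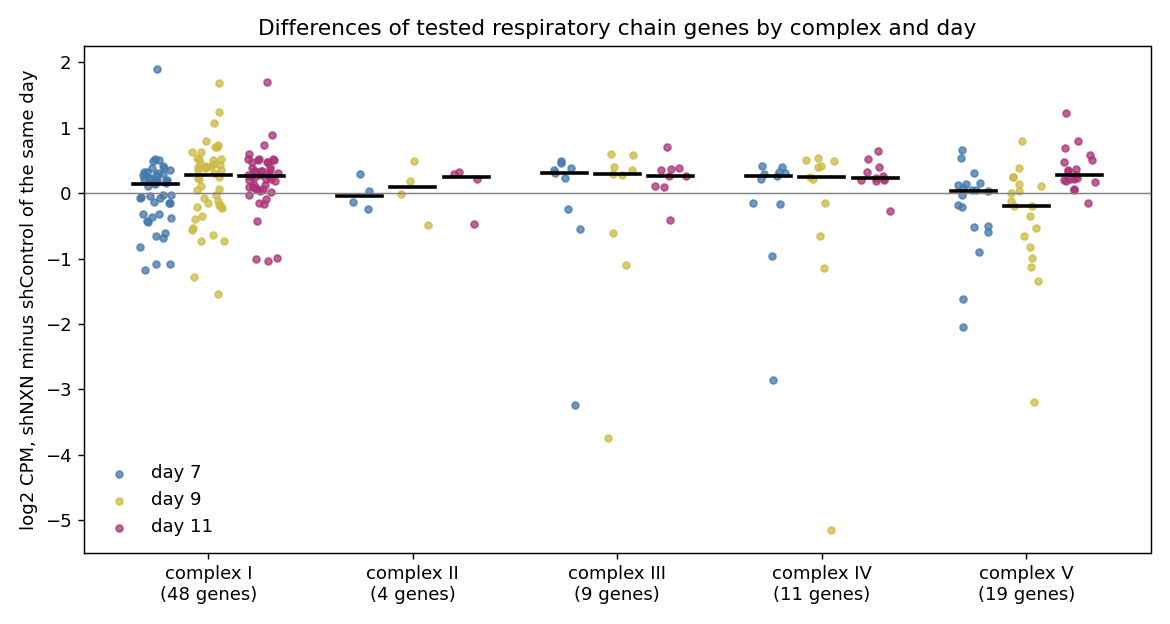
Each point is 1 tested member, plotted as log2 CPM of the shNXN library minus that of the shControl library of the same day, by complex and day, with black bars at the medians. Most points of day 11 lie above 0, and the points below -2 (UQCRB, COX7B and ATP5MJ) belong to days 7 and 9.

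Leaving out both day 11 libraries, an alternative added after the data were seen, edgeR called 23 members (25.3%, against 31.8% of the 14201 features then tested), of which 9 were higher (9.89% against 7.99%) and 14 lower (15.4% against 23.8%). The 14 were NDUFA9, NDUFA12, NDUFS1 and NDUFV2 of complex I, UQCRB and UQCRC2 of complex III, COX7A2 and COX7B of complex IV, and ATP5F1C, ATP5PB, ATP5PF, ATP5PO, ATP5MJ and ATP5MK of complex V. Without the shNXN library of day 11 alone, 19 members were called (20.9%, against 25.8% of all features), 8 higher (8.79% against 4.40%) and 11 lower (12.1% against 21.4%). In the test of day 11 against days 7 and 9, 22 members passed an unadjusted p under 0.05, or 24.2% against 13.4% of all features. Of the 22, 21 were in the positive direction, as were 1708 of the 1888 features that passed. By complex, 7 of 48 tested genes passed in complex I, 1 of 4 in complex II, 3 of 9 in complex III, 3 of 11 in complex IV and 8 of 19 in complex V.

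The members' fold changes also followed transcript GC content, with a Spearman's rho of 0.62 over the 91 members, which share the same 6 libraries. Their median GC content was 47.9%, close to the 48.4% of all tested features. COX7A2 has 42.5% GC, UQCRB 38.3%, NDUFV1 59.4% and CYC1 64.5%. With day as a block and a GC correction, 5 members were called, all higher (5.49%, against 0.995% of all features called and 0.597% called higher): NDUFA4, COX6A1, COX7C, ATP5F1E and ATP5MG. All 5 have transcripts poor in G and C, from 37.5% for ATP5MG to 40.8% for COX6A1, and after the correction the members' fold changes ran against GC content (rho -0.43 over the 91). The longest annotated transcript, on which the correction rests, need not be the one expressed. None of the 13 members called with the block alone was among them. The fitted log2 fold change of NDUFV1 was then 0.14, that of CYC1 0.14, that of UQCRC1 0.08, that of COX5B 0.18 and that of COX7A2 -0.17, whereas ATP5MC1 stayed at 0.78 (edgeR adjusted p = 0.0671) and COX4I1 at 0.40 (adjusted p = 0.152). UQCRB stood at -1.35 and COX7B at -1.81. The medians by complex were then 0.17, 0.37, 0.13, 0.18 and 0.05 for complexes I to V. The part of GC content in these differences was not tested further.

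The factors that build and regulate the chain were read from lists drawn up for this purpose. In the pooled fit 0 genes of these lists were called, and with the block 15 were. With the block, 23.3% of all features were called, 6.28% as higher and 17.0% as lower. The assembly factors of complexes I to V had 10.5%, 25.0%, 0%, 8.70% and 0% called. Electron carriers and ubiquinone synthesis had 5.56%, mitochondrial transcription and RNA 26.7%, and regulators of respiratory gene transcription 38.5%. Of 19 complex I assembly factors, 1 rose and 1 fell with the block: FOXRED1 stood at 36.1, 36.0 and 30.2 CPM in shControl and 51.1, 58.9 and 39.4 CPM in shNXN, and TMEM126B at 22.2, 15.8 and 28.2 CPM and 9.80, 11.0 and 13.1 CPM. Of 4 complex II factors SDHAF1 rose (0.51, SE 0.13, edgeR adjusted p = 0.0464 with the block), and 0 of 6 complex III factors and 0 of 5 complex V factors passed. Of 23 complex IV factors listed, SURF1 rose (0.66, SE 0.16, edgeR adjusted p = 0.0400 with the block) and HIGD1A, a hypoxia-inducible partner of complex IV, fell, standing at 28.1, 31.3 and 43.6 CPM in shControl and 5.11, 4.78 and 18.3 CPM in shNXN. Of 18 electron carriers and genes of ubiquinone synthesis, ETFB rose (0.52, SE 0.13, edgeR adjusted p = 0.0425 with the block).

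Of 15 genes of mitochondrial transcription and RNA, 4 fell with the block and 0 rose (26.7%, against 17.0% of all features called lower). LRPPRC, which stabilises mitochondrial messenger RNA, stood at 323, 343 and 359.9 CPM in shControl and at 118, 96.3 and 265 CPM in shNXN. MTERF1 (10.6, 7.88 and 11.8 against 2.74, 1.10 and 4.90 CPM) and MTERF3 (9.11, 14.2 and 16.7 against 2.92, 2.15 and 7.09 CPM) also had no overlap. The elongation factor TEFM was the remaining gene. Of 13 regulators of respiratory gene transcription, 4 fell and 1 rose with the block (30.8% against 17.0% of all features, and 7.69% against 6.28%). GABPA, the DNA-binding part of the ETS factor GABP, stood at 39.0, 34.8 and 52.7 CPM in shControl and at 14.2, 8.95 and 23.9 CPM in shNXN (log2 fold change with the block -1.51, SE 0.20, edgeR adjusted p = 0.0158). Its partner GABPB1, the coactivator PPARGC1A and the hypoxia factor HIF1A fell too. ESRRA, a nuclear receptor of oxidative metabolism, stood at 62.1, 63.7 and 47.6 CPM in shControl and 77.0, 97.3 and 73.2 CPM in shNXN (log2 fold change with the block 0.51, SE 0.12, edgeR adjusted p = 0.0415). With the GC correction added to the block, none of the 15 kept an adjusted p under 0.05, and GABPA had a log2 fold change of -0.17.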

How the data were processed

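Messenger RNA libraries (SMARTER kit) of 6 Hep-3B samples were analysed. The authors deposited an estimated count per feature and library, with 2 decimals, and in a second table FPKM values, which the authors had scaled to transcript length and library size. The aligner, counting program and annotation are not given in the sources used here. The submitters' processing notes name the builds GRCm 38 and mm 10, which are mouse builds, whereas the identifiers are human, so positions were taken from GENCODE 29 (GRCh38). There were 0 columns without a sample. How reads shared with processed pseudogenes or paralogs were assigned is not stated, and counts of such small subunit genes are uncertain. The depth of 15349382 to 16332589 counts per library sets the counting precision. No pair of libraries within a group agreed within sampling noise (chi-square per gene 21.2 to 83.0), and each such pair also differed in day of collection.

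Here the deposited estimated counts were rounded and all 23406 features entered edgeR 4.0.16 (R 4.3.3): TMM, filterByExpr (14071 kept), quasi-likelihood test, Benjamini-Hochberg adjustment over all, threshold 0.05. The standard error was the log2 fold change divided by the square root of F. CPM are TMM-scaled, and day differences use log2(CPM + 0.5). Of the Ensembl identifiers 19433 had a symbol. The members and all lists were chosen with earlier results of these data known. Named members are, in each complex, those with the smallest p, the highest FPKM and the paralog groups, plus the 5 with the smallest p with the block. Genes of the pathway lists were named from the fit with the block, since none passed without it, and so after their values were seen. A promoter window was kept only where it lay on the member's chromosome at or near its gene, which removed 1 match by alias. The window kept for NDUFA5 (chr7:123601602-123601901) lay outside the GENCODE gene, which ends at 123558255. Day 11 was tested against days 7 and 9 by an interaction term added after the data were seen.

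The replicate numbers pair the samples, because the labels tie each to a day of collection. The deviations of same-day libraries from their group means correlated at 0.36, 0.34 and 0.48, and those of different days between -0.40 and 0.16. Alternatives were the replicate block, DESeq2 1.42.0, RLE factors, library size only, no filter, 10 counts in every library, limma 3.58.1 on log2(FPKM + 1) and log2(FPKM + 0.1), a GC correction (spline of 5 degrees of freedom on the GC content of the longest GENCODE 29 transcript, known for 90.5% of tested features and 100.0% of tested members), subunits only, and each library left out. The pooled fit, the fit with the block and the day 11 interaction were tested on simulated counts, and the other alternatives were not. None of these simulated sets held a day effect common to both groups or a GC trend, so they do not show how the fits behave with either. Their outcome is not given here.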

Additional observations from a re-analysis of the deposited data

Results flagged for a closer look

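Several differences between shNXN and shControl changed sign between days. Each day has 1 library a group, so the sign changes as such were not tested. The median day difference (log2 CPM) of complex II was -0.05, 0.09 and 0.25 on days 7, 9 and 11, and that of complex V was 0.04, -0.19 and 0.28. Among single genes in the same day order, ATP5F1C, the gamma subunit of the ATP synthase, had -0.91, -1.35 and 0.21, and NDUFA4 had -0.37, -0.40 and 0.22. ATP5MC3 had -0.22, -0.34 and 0.06. The complex II membrane anchors SDHC and SDHD had -0.14, -0.49 and 0.29, and -0.24, 0.19 and -0.48.

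For 1 member the departure of day 11 from days 7 and 9 itself passed a test: UQCRB, at 3.17 on the log2 scale (edgeR's quasi-likelihood test, adjusted p = 0.0467). The call was not made with a GC correction, with library size as the only scaling or without a filter.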

How the results depend on the processing

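NXN kept its direction in every alternative, and its call was lost when any of 4 libraries was left out (log2 fold change -1.90 to -1.67 over the 6 libraries left out in turn, adjusted p 0.00131 to 0.225). The number of features called moved most. It was 477 with the days pooled, 3311 with DESeq2, 5 with the GC correction, 826 with RLE factors, 929 with library size only, 818 with no filter, 66 and 287 with limma on log2(FPKM + 0.1) and log2(FPKM + 1), 3272 with the replicate block, 140 with the block and the GC correction, 4519 without the day 11 libraries (chosen after seeing the data), and 0 to 3706 with 1 library left out. Members called numbered 0 with the days pooled, 5 with DESeq2, 13 with the replicate block, 5 with the block and the GC correction, 23 without day 11 and 0 to 19 with 1 library left out. Called genes of the pathway lists numbered 0, 19 with DESeq2, 1 each with RLE factors, library size only, no filter, limma on log2(FPKM + 1) and the block with the GC correction, 15 with the replicate block, 25 without day 11 and 0 to 21 with 1 library left out. The UQCRB departure on day 11 counted 1 member, and 0 with the GC correction, library size only or no filter.

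The median log2 fold change of all members moved to 0.26 and 0.25 with limma on log2(FPKM + 0.1) and log2(FPKM + 1), where complex I had 0.35 and 0.34 and complex IV 0.33 in both, to 0.08 without day 11, and to between 0.11 and 0.28 with 1 library left out. Complex III had 0.32 with DESeq2 and RLE factors, 0.34 with no filter, 0.12 with the GC correction, 0.13 with that correction plus the replicate block, and 0.33 without day 11. Complex IV had 0.29, 0.29, 0.28, 0.17, 0.18 and 0.23 in that order, and 0.18 with subunits only, where complex I had 0.29. Complex II moved to 0.37 with the GC correction, with and without the block. With 1 library left out, complex I ran from 0.16 to 0.32, complex II from -0.05 to 0.10, complex III from 0.20 to 0.43, complex IV from 0.16 to 0.36 and complex V from -0.13 to 0.21.

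Of the named members, 27 were tested, and 17 of their alternative values had the opposite sign. With the GC correction these were NDUFA11 (-0.05), ATP5MF (-0.09), COX6B1 (-0.07), SDHD (0.68), SDHC (0.49), NDUFA4 (0.72) and ATP5MC3 (0.68), and with the block added -0.05, -0.06, -0.06, 0.65, 0.50, 0.72 and 0.67. SDHC was also at 0.01 with limma on both FPKM scales and between -0.28 and 0.05 with 1 library left out, above 0 without shNXN replicate 2. A further 36 alternative values passed the threshold where the pooled fit did not, and 406 kept direction and side of the threshold. The causes of these moves were not tested. The 3 libraries a group, of which 1 falls on each day, and the GC trend limit what can be read from differences of this size.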
